A study of Mus musculus with 9 samples.

Results

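The genes described here are 38 that charge tRNA or supply the amino acids for it. They comprise 20 cytosolic aminoacyl-tRNA synthetase genes, 3 enzymes of asparagine and proline synthesis, 8 enzymes of serine synthesis and one-carbon metabolism and 7 amino acid transporters. They were taken by gene symbol from a count table of 49315 genes, in which every one of the 38 symbols was found, and all 38 passed the filter on low counts that left 15963 genes for testing. RNA came from RAW 264.7 cells, an established mouse macrophage line. RANKL, a cytokine of the TNF family, turns such cells into osteoclast-like ones. Per the growth notes, cells were grown for 24 h and given 20 ng/ml RANKL. The control group received nothing more and is labelled as untreated. At 48 h in total the pamidronate group received 140 µM pamidronate, and the pamidronate + GGOH group received 140 µM pamidronate with 5.25 µM GGOH. All cells were collected 24 h later, with 3 libraries a group, called control, pamidronate and GGOH libraries below. Pamidronate is a nitrogen-containing bisphosphonate that blocks farnesyl diphosphate synthase in the mevalonate pathway, and GGOH (geranylgeraniol) can be converted to the geranylgeranyl group that this pathway makes for protein prenylation. The comparisons ask how these genes differ after pamidronate and whether GGOH moves them back.

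Each aminoacyl-tRNA synthetase joins 1 kind of amino acid to its tRNAs, the step that puts the right residue on the ribosome, and several of them sit together in a multi-synthetase complex. When charged tRNA runs short, the kinase GCN2 (gene Eif2ak4) phosphorylates the initiation factor eIF2α, which lowers general translation while the mRNA of the transcription factor ATF4 is translated more. ATF4 is known to raise transcription of many synthetases, of Asns, of the serine and one-carbon enzymes and of amino acid transporters, through C/EBP-ATF response elements.

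The RefSeq promoter table (build GRCm38.p6) held a window from 250 bases before to 50 bases after the transcription start for 28 of the 38 genes. The letters TGATGNAA, the core of the C/EBP-ATF response element, were searched on both strands. They were present in 8 of the 28 genes (28.6%) and in 1304 of all 32851 windows of the table (3.97%). A 30-base stretch for each of the 8 genes is shown because ATF4 is known to bind elements of this kind. Binding was not measured here. Each is written 5′ to 3′ on the gene's strand with the match in capitals. A match on the opposite strand appears as the reverse complement.
Aars: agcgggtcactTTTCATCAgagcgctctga
Gars: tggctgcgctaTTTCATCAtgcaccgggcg
Iars: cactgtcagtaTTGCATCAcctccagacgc
Tars: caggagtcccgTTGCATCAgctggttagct
Yars: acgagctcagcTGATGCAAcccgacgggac
Asns: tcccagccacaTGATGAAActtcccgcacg
Pycr1: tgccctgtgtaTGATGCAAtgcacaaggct
Slc1a4: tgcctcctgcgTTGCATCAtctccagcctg

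On GRCm38.p6 the Aars stretch is at chr8:111033840-111033869 (plus strand), with its match starting at transcribed base 10. The Gars stretch (chr6:55037960-55037989, plus strand) has its match 30 bases before the start, and the Iars stretch (chr13:49682126-49682155, plus strand) at transcribed base 8. The Tars match lies 15 bases before the start (chr15:11399655-11399684, minus strand), and the Yars match at transcribed base 4 (chr4:129189895-129189924, plus strand). For Asns it lies 23 bases before the start (chr6:7693214-7693243, minus strand), for Pycr1 103 bases before it (chr11:120643833-120643862, minus strand) and for Slc1a4 4 bases before it (chr11:20332699-20332728, minus strand). The E-box CACGTG, which reads the same on both strands, was present in 5 of the 28 genes (17.9%), namely Aars, Farsb, Iars, Tars and Aldh18a1. It was present in 7.15% of all windows. A gene counted if any of its windows matched, and Psat1 and Slc7a1 had 2 windows each. A match is only a description of the letters. No window was held for Cars, Hars, Lars, Nars, Rars, Vars, Wars, Slc1a5, Slc7a5 and Slc38a1.

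After pamidronate most of the 38 genes fell. With edgeR's quasi-likelihood test and Benjamini-Hochberg adjustment over all genes, called at an adjusted p under 0.05, 25 of the 38 were lower than in the control libraries and 7 were higher, and the other 6 did not pass. In all, 32 of the 38 were called, where 69.2% of all genes were. The lower calls were 65.8% of the 38, against 32.9% of all genes tested, and the higher calls were 18.4%, against 36.2%. The median log2 fold change was -0.51 over the 38 genes and 0.08 over all genes. In 35 of the 38 no pamidronate library overlapped a control library, which held for 73.4% of all genes. At least 2-fold falls were seen for 6 of the 38 genes, slightly below the 16.9% of all genes tested. They were Vars, Slc1a4, Shmt2, Aldh18a1, Phgdh and Slc7a5. Of the 25 genes that fell, 16 were called higher again in the GGOH libraries than in the pamidronate libraries. Of the 7 that rose, 4 were called lower again. Both comparisons use the same pamidronate libraries, so a change and its return are not independent. The matching share among all genes that fell or rose was not computed. Whether the return was particular to these genes was therefore not tested.

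**Figure D1:**
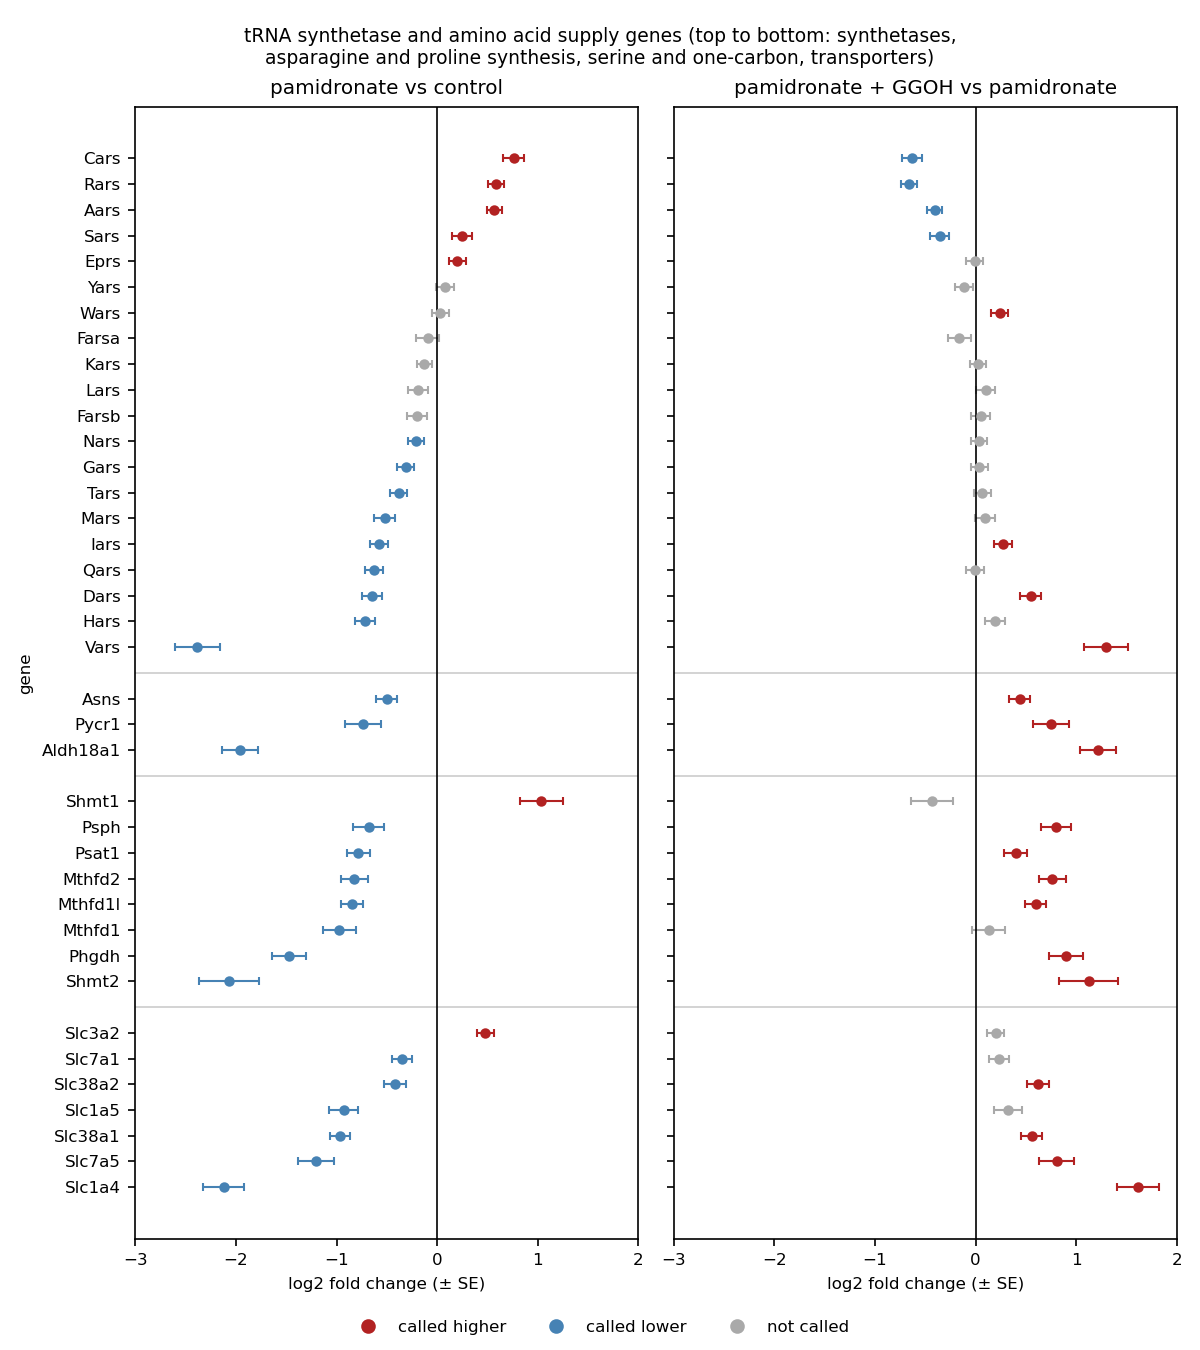
Log2 fold change (x axis, with standard error bars) of each of the 38 genes (y axis, in 4 role groups) for pamidronate against control (left) and pamidronate + GGOH against pamidronate (right), coloured by the edgeR call. On the left 25 genes lie lower and 7 higher, and on the right 17 lie higher and 4 lower.

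In a pool of cells, fewer cells of a type and less RNA per cell cannot be told apart. Library totals ran from 14356069 to 18957968 counts, and the 38 genes took 0.448 to 0.487% of them in control, 0.386 to 0.402% in pamidronate and 0.458 to 0.524% in GGOH libraries. The share of mitochondrial counts was 10.4 to 10.8%, 3.71 to 5.19% and 5.43 to 6.31% in the same order. The summed level of 10 macrophage markers was 15958 to 20703 CPM (counts scaled to library size) in control, 4834 to 6825 CPM in pamidronate and 6888 to 9962 CPM in GGOH libraries. Lyz2 made up most of that sum, at 13697 CPM on average in control, 4296 CPM in pamidronate and 5881 CPM in GGOH libraries. With pamidronate 9 of the 10 were called lower (90.0%, against 32.9% of all genes). The summed level of 9 osteoclast markers was 88.9 to 109 CPM, 268 to 407 CPM and 241 to 248 CPM in the same order. Atp6v0d2 held most of it in control (58.2 CPM on average) and pamidronate libraries (272 CPM). Of the 6 tested osteoclast markers 4 were called higher with pamidronate (66.7%, against 36.2% of all genes), namely Ctsk, Dcstamp, Atp6v0d2 and Itgb3. Mmp9 (27.1 CPM in control and 17.7 CPM in pamidronate libraries) and Acp5 (5.27 and 7.35 CPM) did not pass. The calcitonin receptor gene Calcr was at 0 in every control and pamidronate library and Ocstamp and Oscar at most 0.453 CPM in any library. Fibroblast, epithelial, T cell and B cell markers each summed to at most 2.49 CPM in any library. The part of these shifts in the results below was not tested. The titles call each control library a "biolog replicate", while those of the treated groups say only replicate. The extraction notes describe RNA taken in triplicate. The p-values therefore measure the spread between these libraries, which may be technical.

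Synthetases did not move as a block. Of the 20 genes, 9 fell with pamidronate, 5 rose and 6 did not pass, where 32.9% of all genes fell and 36.2% rose. The median log2 fold change of the 20 was -0.19. The fall of Vars was the largest of the 9. Vars (ENSMUSG00000007029, chromosome 17, 35000987 to 35016322, plus strand) encodes valyl-tRNA synthetase. Its level was 216, 223 and 223 CPM in the control libraries, 47.8, 41.6 and 37.1 CPM with pamidronate and 76.7, 87.6 and 145 CPM with GGOH. The 3 groups did not overlap, with the GGOH libraries between the others and the third of them highest. Vars fell by 2.39 ± 0.22 (SE, n = 3 libraries a group) on the log2 scale, a 5.23-fold decrease with adjusted p = 1.07e-05. It rose 2.45-fold from there with GGOH (log2 1.29 ± 0.22, adjusted p = 0.0011) and remained 2.13-fold below control (adjusted p = 0.00236).

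Hars, which encodes the cytosolic histidyl enzyme, was at 34.3, 37.8 and 40.0 CPM in control, 22.4, 24.4 and 21.3 CPM in pamidronate and 24.7, 27.5 and 25.5 CPM in GGOH libraries. Both treated groups lay below every control library. Hars fell by 0.72 ± 0.10 on the log2 scale (adjusted p = 1.69e-05), and its GGOH difference of 0.19 did not pass (adjusted p = 0.132). It shares 195 exonic bases with Hars2 on the opposite strand, and whether the counting used strand is not given in the sources used here. Dars, for aspartate, ran at 93.0, 82.2 and 77.0 CPM in control, 56.6, 57.7 and 46.5 CPM in pamidronate and 74.8, 76.2 and 83.9 CPM in GGOH libraries. The GGOH libraries reached into the control range. Dars fell by 0.65 ± 0.10 (adjusted p = 5.27e-05) and rose by 0.55 ± 0.10 with GGOH (adjusted p = 0.000491). Iars, for isoleucine, read 247, 239 and 224 CPM in control, 160, 154 and 162 CPM in pamidronate and 177, 182 and 215 CPM in GGOH libraries. Here the GGOH libraries lay between the other groups without overlap. Iars fell by 0.58 ± 0.09 (adjusted p = 4.45e-05) and rose by 0.27 ± 0.09 with GGOH (adjusted p = 0.0208). The latter call was lost without pamidronate replicate 1 (adjusted p = 0.0622) or replicate 2 (adjusted p = 0.0875).

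The other synthetases that fell were Qars, Mars, Tars, Gars and Nars, for glutamine, methionine, threonine, glycine and asparagine. They fell by 0.63, 0.52, 0.38, 0.31 and 0.21 on the log2 scale, and none of the 5 was called higher again with GGOH. Mars shares 68 exonic bases with Ddit3 on the opposite strand, a gene that rose. The calls of Gars and Nars were lost with upper-quartile scaling (log2 -0.12 and -0.01), which moved the median of all genes from 0.08 to 0.28. Nars was lost as well with the stricter filter (log2 -0.09, adjusted p = 0.265). The same held without control replicate 1 (log2 -0.16), pamidronate replicate 1 (log2 -0.20) or pamidronate replicate 3 (log2 -0.20).

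Against the majority, Cars, Rars and Aars rose with pamidronate and fell back with GGOH. Rars (ENSMUSG00000018848, chromosome 11, 35808381 to 35834506, minus strand) encodes the arginyl enzyme of the multi-synthetase complex. It was at 140, 142 and 149 CPM in control, 208, 219 and 220 CPM in pamidronate and 134, 134 and 140 CPM in GGOH libraries. Every pamidronate library stood above all the others, and the GGOH libraries lay at the lower end of the control range or below it. The rise was 1.50-fold (log2 0.58 ± 0.08, adjusted p = 7.51e-06) and the later fall 1.58-fold (adjusted p = 8.12e-06). Cars, the cysteinyl enzyme gene, stood at 80.8, 70.3 and 62.0 CPM in control, 117, 113 and 131 CPM in pamidronate and 82.1, 77.3 and 73.1 CPM in GGOH libraries. Control and GGOH libraries overlapped, and the pamidronate libraries lay above both. Cars rose 1.69-fold (log2 0.76 ± 0.10, adjusted p = 1.11e-05) and fell by 0.63 ± 0.10 with GGOH (adjusted p = 0.000148). Aars, the alanyl enzyme gene, gave 101, 101 and 94.3 CPM in control, 140, 146 and 153 CPM in pamidronate and 108, 110 and 113 CPM in GGOH libraries. The GGOH libraries lay above the controls and far below pamidronate. Aars rose 1.48-fold (log2 0.57 ± 0.08, adjusted p = 1.14e-05) and fell by 0.41 ± 0.08 (adjusted p = 0.000525). Aars shares 1326 exonic bases with Exosc6 on the same strand, which has 0 counts in all libraries, so reads from Exosc6 could stand under Aars. Cars overlaps a pseudogene by 211 bases.

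Sars, for serine, and Eprs, which carries the glutamyl and prolyl enzymes in 1 protein, were also called higher with pamidronate, by 0.25 and 0.20 on the log2 scale. Both calls were close to the threshold (adjusted p = 0.0323 and 0.0412). They were lost when any 1 of several libraries was left out, with RLE factors and without the filter, and that of Eprs also with DESeq2 (adjusted p = 0.0528), the 2-group fit and the replicate block (adjusted p = 0.0572). Sars read 0.17 without control replicate 2, 0.13 without control replicate 3, 0.24 and 0.21 without pamidronate replicates 2 and 3, and 0.20, 0.20 and 0.19 without GGOH replicates 1, 2 and 3. For Eprs the values were 0.14 and 0.09 without control replicates 2 and 3, 0.19, 0.21 and 0.19 without pamidronate replicates 1, 2 and 3, and 0.15, 0.15 and 0.14 without GGOH replicates 1, 2 and 3. Sars fell by 0.36 with GGOH (adjusted p = 0.00692), a call lost without GGOH replicate 2 (log2 -0.25, adjusted p = 0.0828).

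The 6 synthetases that did not pass with pamidronate were Farsa and Farsb, the subunits of the phenylalanyl enzyme, and Kars, Lars, Wars and Yars, for lysine, leucine, tryptophan and tyrosine. Their log2 fold changes ran from -0.20 for Farsb to 0.08 for Yars. Those of Farsa, Kars and Lars changed sign with upper-quartile scaling (0.10, 0.07 and 0.01), and Wars and Yars then passed (0.23 and 0.27). Farsb passed as lower without control replicate 3 (log2 -0.29) or any 1 GGOH library (log2 -0.25, -0.25 and -0.26). It also passed with RLE factors (adjusted p = 0.0394), DESeq2 (adjusted p = 0.047), no filter (adjusted p = 0.0146) and the 2-group fit (adjusted p = 0.0198). Kars passed without GGOH replicate 1 or 3 (log2 -0.18 and -0.19), and Lars without control replicate 3 or GGOH replicate 1 or 3 (log2 -0.30, -0.24 and -0.25), with no filter (log2 -0.27) and in the 2-group fit (log2 -0.21). Wars was the only one of these 6 called with GGOH against pamidronate (log2 0.24, adjusted p = 0.0276), at 93.0, 86.8 and 99.5 CPM in pamidronate and 105, 112 and 113 CPM in GGOH libraries. That call was lost without pamidronate replicate 1 (log2 0.23, adjusted p = 0.0796) or replicate 2 (log2 0.19, adjusted p = 0.136).

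Rises and falls both occurred in each catalytic class and both inside and outside the multi-synthetase complex. Class I enzymes, which share a Rossmann-fold active site, had 2 genes higher and 4 lower of 9. Class II enzymes had 2 higher and 5 lower of 10, and Eprs holds 1 domain of each class. The multi-synthetase complex members had 2 higher and 4 lower of 8, and the genes outside it 3 higher and 5 lower of 12. Among all genes 36.2% rose and 32.9% fell, so finding both directions in a group does not set it apart. Whether class or complex membership bears on the direction was not tested. Of the genes with response element letters, Gars, Iars, Tars, Asns, Pycr1 and Slc1a4 were called lower with pamidronate. Aars was called higher, and Yars did not pass. The log2 fold change of Slc1a4, -2.12, was the lowest among the matched genes. Whether the letters bear on the direction was not tested.

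**Figure D2:**
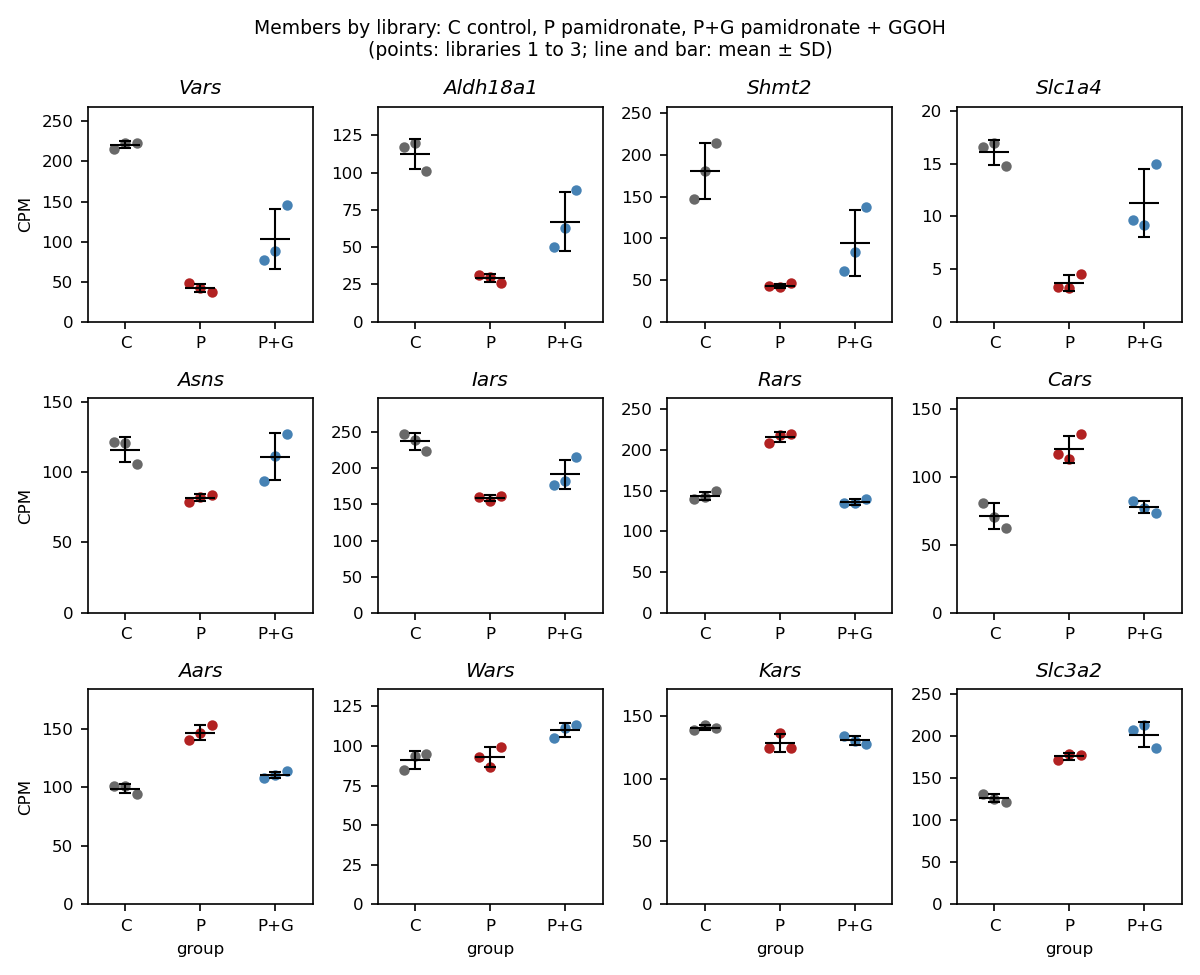
CPM (y axis, from 0) of 12 of the genes in each library of the control (C), pamidronate (P) and pamidronate + GGOH (P+G) groups, with the mean and SD over 3 libraries. Vars, Aldh18a1, Shmt2 and Slc1a4 are low in P and intermediate in P+G, Rars, Cars and Aars are high in P only, and Slc3a2 is lowest in control.

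All 3 enzymes of asparagine and proline synthesis fell with pamidronate, where 32.9% of all genes fell. All 3 rose again with GGOH, where 25.2% of all genes rose. Asns makes asparagine from aspartate and is a textbook ATF4 target. Asns (ENSMUSG00000029752, chromosome 6, 7675169 to 7693254, minus strand) was at 121, 120 and 106 CPM in control, 79.0, 82.0 and 83.9 CPM in pamidronate and 93.8, 111 and 127 CPM in GGOH libraries. The pamidronate libraries lay below all the others, and the GGOH libraries spread to both sides of the control range. Asns fell by 0.50 ± 0.10 on the log2 scale (adjusted p = 0.000583), rose by 0.44 ± 0.10 with GGOH (adjusted p = 0.00282) and differed from control by -0.06 then (adjusted p = 0.634). Its stretch printed above carries TGATGAAA just before the start.

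Aldh18a1 (ENSMUSG00000025007, chromosome 19, 40550257 to 40588463, minus strand) encodes pyrroline-5-carboxylate synthase, which starts proline synthesis from glutamate. It was at 117, 120 and 101 CPM in control, 31.1, 29.9 and 26.0 CPM in pamidronate and 50.2, 62.9 and 88.5 CPM in GGOH libraries. The groups did not overlap, and GGOH replicate 3 came nearest to control. Aldh18a1 fell 3.89-fold (log2 -1.96 ± 0.18, adjusted p = 3.15e-06), rose 2.32-fold with GGOH (adjusted p = 0.000265) and stayed 1.67-fold below control (adjusted p = 0.00447). Pycr1 encodes the reductase that finishes proline. Its level was 15.6, 12.5 and 9.14 CPM in control, 7.99, 7.64 and 6.74 CPM in pamidronate and 11, 14 and 12.5 CPM in GGOH libraries. Pamidronate libraries were lowest, and GGOH libraries fell inside the wide control range. Pycr1 fell by 0.74 ± 0.18 (adjusted p = 0.00227) and rose by 0.75 ± 0.18 (adjusted p = 0.00341).

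In serine and one-carbon metabolism 7 of 8 genes fell with pamidronate (87.5%, against 32.9% of all genes), and only Shmt1 rose. The 3 serine enzymes act in the order Phgdh, Psat1, Psph, and all 3 fell and rose again with GGOH. Phgdh, which takes 3-phosphoglycerate out of glycolysis, was at 40.8, 44.6 and 46.9 CPM in control, 16.8, 13.0 and 17.8 CPM in pamidronate and 22.0, 29.8 and 37.0 CPM in GGOH libraries. The GGOH libraries lay between the other groups with no overlap. Phgdh fell 2.77-fold (log2 -1.47 ± 0.17, adjusted p = 5.92e-06) and rose 1.87-fold with GGOH (adjusted p = 0.000821). Psat1, the transaminase, fell by 0.78 and rose by 0.40 on the log2 scale. Psph, the phosphatase, was at 14.1, 14.6 and 12.7 CPM in control, 8.36, 7.33 and 10.1 CPM in pamidronate and 12.9, 15.2 and 16.8 CPM in GGOH libraries. Control and GGOH libraries overlapped above the pamidronate ones. Psph fell by 0.68 ± 0.15 (adjusted p = 0.00098) and rose by 0.80 ± 0.15 (adjusted p = 0.000522). It shares 452 exonic bases with Cct6a on the opposite strand, which fell by 0.81 with pamidronate, so Psph is uncertain without strand.

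Shmt2 and Shmt1 encode the mitochondrial and cytosolic serine hydroxymethyltransferases, which move a one-carbon unit from serine to folate and leave glycine. Shmt2 (ENSMUSG00000025403, chromosome 10, 127517123 to 127522444, minus strand) was at 147, 181 and 215 CPM in control, 42.7, 41.0 and 45.8 CPM in pamidronate and 61.0, 83.4 and 138 CPM in GGOH libraries. The pamidronate libraries were tight and low, while the other groups were wide and did not overlap. Shmt2 fell 4.19-fold (log2 -2.07 ± 0.30, adjusted p = 0.000461) and rose 2.18-fold with GGOH (log2 1.13 ± 0.29, adjusted p = 0.0152). The rise missed the threshold without pamidronate replicate 1 (log2 1.11, adjusted p = 0.051), and it was 0.79 on the log2 scale without GGOH replicate 3. Shmt1 went the other way, at 13.4, 20.4 and 24.3 CPM in control, 40.5, 35.7 and 42.8 CPM in pamidronate and 36.6, 28.3 and 23.2 CPM in GGOH libraries. Its pamidronate libraries stood above every control, and the GGOH libraries reached into both groups. Shmt1 rose 2.05-fold (log2 1.04 ± 0.21, adjusted p = 0.00144), and the GGOH difference of -0.43 did not pass (adjusted p = 0.113) but did without GGOH replicate 1 (log2 -0.58, adjusted p = 0.0348) or control replicate 1 (log2 -0.44, adjusted p = 0.022). Shmt1 shares 184 exonic bases with Smcr8 on the opposite strand, which rose from 169 to 434 CPM, so the Shmt1 value is uncertain without strand.

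The folate enzymes Mthfd1, Mthfd2 and Mthfd1l, which interconvert one-carbon folates in the cytosol (Mthfd1) and mitochondria, all fell. Mthfd1 was at 44.2, 56.3 and 60.6 CPM in control, 31.4, 23.6 and 27.1 CPM in pamidronate and 26.6, 25.8 and 37.4 CPM in GGOH libraries. Both treated groups overlapped and lay below control. Mthfd1 fell by 0.97 ± 0.16 (adjusted p = 0.000154), and its GGOH difference of 0.13 did not pass (adjusted p = 0.528). Mthfd2 and Mthfd1l fell by 0.82 and 0.84 and rose by 0.76 and 0.60 with GGOH. With Shmt2, the mitochondrial enzymes of the group therefore all moved down and back up, and the cytosolic Mthfd1 moved down without a call for GGOH. Whether Mthfd1 responded differently from the mitochondrial genes was not tested.

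Among the transporters 6 of 7 fell with pamidronate (85.7%, against 32.9% of all genes) and Slc3a2 rose. Slc1a4 (ENSMUSG00000020142, chromosome 11, 20302180 to 20332713, minus strand) encodes ASCT1, an exchanger of alanine, serine and cysteine. It was at 16.6, 17.0 and 14.8 CPM in control, 3.29, 3.22 and 4.57 CPM in pamidronate and 9.68, 9.19 and 15 CPM in GGOH libraries. Only GGOH replicate 3 reached the control range, and all GGOH libraries lay above pamidronate. Slc1a4 fell 4.35-fold (log2 -2.12 ± 0.20, adjusted p = 4.25e-07) and rose 3.06-fold with GGOH (log2 1.61 ± 0.21, adjusted p = 2.05e-05), the largest GGOH rise among the 38 genes. Slc1a5 encodes ASCT2, which carries glutamine. It fell by 0.93 and had a GGOH difference of 0.32 that did not pass (adjusted p = 0.0808), while it passed without GGOH replicate 1 (log2 0.50, adjusted p = 0.00803) or replicate 2 (log2 0.44, adjusted p = 0.0475).

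Slc7a5 and Slc3a2 encode the light chain LAT1 and the heavy chain 4F2hc of 1 transporter of large neutral amino acids such as leucine, and they moved in opposite directions. Slc7a5 was at 86.4, 101 and 115 CPM in control, 39.8, 45.9 and 45.7 CPM in pamidronate and 57.8, 73.4 and 98.3 CPM in GGOH libraries. Its pamidronate libraries were lowest, and GGOH replicate 3 lay inside the control range. Slc7a5 fell 2.30-fold (log2 -1.20 ± 0.18, adjusted p = 0.000115) and rose 1.75-fold with GGOH (adjusted p = 0.00328). Slc3a2 (ENSMUSG00000010095, chromosome 19, 8706882 to 8723369, minus strand) was at 131, 126 and 121 CPM in control, 171, 178 and 178 CPM in pamidronate and 207, 213 and 185 CPM in GGOH libraries. Its 3 groups did not overlap and stood in that order. Slc3a2 rose 1.40-fold with pamidronate (log2 0.48 ± 0.08, adjusted p = 0.000104) and was 1.60-fold above control with GGOH (log2 0.68 ± 0.08, adjusted p = 1.75e-05). The step from pamidronate to GGOH, 0.20 on the log2 scale, missed the threshold (adjusted p = 0.0541) and passed without GGOH replicate 3 (log2 0.30, adjusted p = 0.00567) or without control replicate 2 or 3 (both 0.24). It passed as well with RLE factors (adjusted p = 0.0418), DESeq2 (adjusted p = 0.0334), limma-voom (adjusted p = 0.0489) and the stricter filter (adjusted p = 0.0426).

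Slc38a1 and Slc38a2 encode sodium-coupled carriers of small neutral amino acids such as glutamine and alanine. Slc38a1 was at 191, 222 and 255 CPM in control, 118, 109 and 115 CPM in pamidronate and 159, 163 and 181 CPM in GGOH libraries. The GGOH libraries lay between the others. Slc38a1 fell by 0.97 ± 0.10 (adjusted p = 1.07e-06) and rose by 0.56 ± 0.10 (adjusted p = 0.00041). Slc38a2 was at 482, 497 and 625 CPM in control, 395, 414 and 392 CPM in pamidronate and 599, 673 and 578 CPM in GGOH libraries. The GGOH libraries lay in or above the control range. Slc38a2 fell by 0.42 ± 0.11 (adjusted p = 0.00336), a call lost with upper-quartile scaling (log2 -0.22, adjusted p = 0.0822), and rose by 0.62 ± 0.11 with GGOH (adjusted p = 0.00028). Slc7a1, the cationic amino acid carrier CAT1, fell by 0.35, lost with the same scaling (log2 -0.15), and its GGOH difference of 0.23 did not pass (adjusted p = 0.0663). It passed without GGOH replicate 1 (log2 0.38, adjusted p = 0.00369) or control replicate 3 (log2 0.27, adjusted p = 0.0349).

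**Figure D3:**
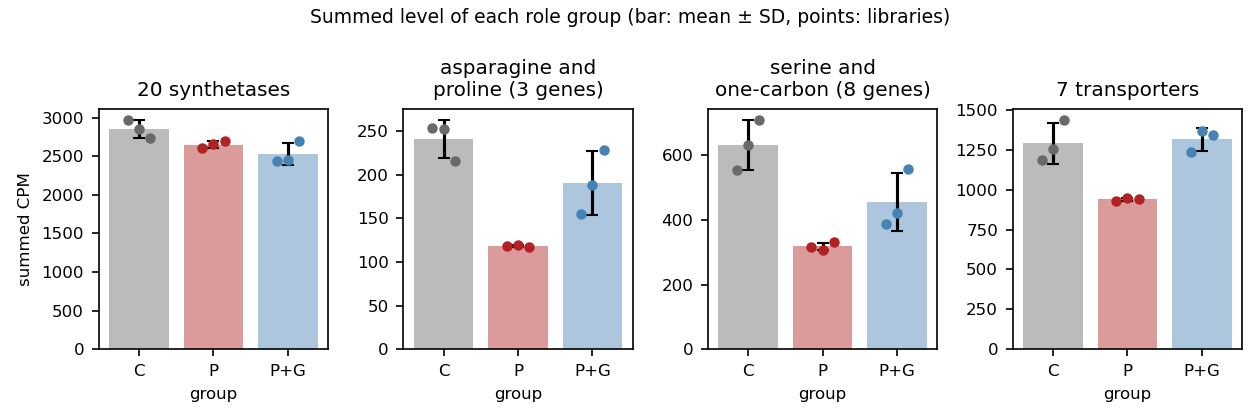
Summed CPM (y axis, from 0) of the 4 role groups in control (C), pamidronate (P) and pamidronate + GGOH (P+G), with bars for the mean, error bars for the SD and points for the 3 libraries. The synthetase sum changes little beside the other 3 sums, which are lowest in P.

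Summed over each role, the synthetases went from 2852 ± 117 CPM (SD, n = 3) in control to 2654 ± 47.8 CPM with pamidronate and 2531 ± 148 CPM with GGOH. The asparagine and proline enzymes went from 241 ± 21.6 to 118 ± 1.49 and 190 ± 36.6 CPM. Serine and one-carbon enzymes went from 632 ± 77.2 to 319 ± 11.2 and 455 ± 89.9 CPM, and transporters from 1292 ± 129 to 941 ± 9.18 and 1316 ± 70.2 CPM. These sums are descriptions without a test, since a few abundant genes carry each.

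On the authors' TPM scale, which allows levels to be compared between genes per length, Slc38a2 had the highest level of the 38 in control at 263 ± 50.2 TPM (SD, n = 3). Sars followed at 198 ± 7.11 TPM and Shmt2 at 179 ± 41.9 TPM, with spreads that overlap. The lowest were Pycr1 at 7.10 ± 1.50, Psph at 7.23 ± 0.49 and Slc1a4 at 9.29 ± 0.62 TPM. Vars stood at 89.3 ± 6.48 TPM in control, near Iars at 102 ± 2.71 and Asns at 95.8 ± 5.28 TPM. In pamidronate libraries Vars was at 18.7 ± 2.82 TPM, and of the synthetases only Farsa, at 15 ± 0.92 TPM, lay lower. Shmt2 dropped to 46.6 ± 2.85 TPM, while Sars (259 ± 10.2 TPM), Slc38a2 (215 ± 5.55 TPM) and Rars (166 ± 1.28 TPM) were highest.

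The comparison of GGOH with pamidronate gave 17 higher and 4 lower calls among the 38 genes, 21 in all, where 48.8% of all genes were called. The higher calls were 44.7% of the genes, against 25.2% of all genes tested, and the lower calls 10.5%, against 23.6%. In 23 of the 38 the libraries did not overlap, against 59.6% of all genes. Rises of at least 2-fold were called for Vars, Aldh18a1, Shmt2 and Slc1a4. That is 4 of the 38 genes, slightly below the 11.3% of all genes. No fall reached 2-fold (0 genes, against 6.67%). The median log2 fold change was 0.22 over the 38 and 0.00 over all genes. All 4 lower calls were synthetases (Aars, Cars, Rars and Sars), as were 4 of the higher ones (Vars, Dars, Iars and Wars). Among the synthetases 20.0% were called higher and 20.0% lower, both below the 25.2% and 23.6% of all genes. The other 13 higher calls were 3 asparagine and proline enzymes (100% of that group), 6 serine and one-carbon enzymes (75.0%) and 4 transporters (57.1%). This comparison shares the pamidronate libraries with the first.

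GGOH replicate 3 was the highest GGOH library for 29 of the 38 genes, and for 14 of the 16 genes that fell with pamidronate and rose with GGOH. The median coefficient of variation of the 38 genes was 7.25% in control, 5.93% in pamidronate and 10.7% in GGOH libraries. Without that library the rise with GGOH was 1.00 for Vars, 1.01 for Aldh18a1, 1.40 for Slc1a4 and 0.75 for Phgdh on the log2 scale, each still called. Its macrophage marker genes Csf1r and Adgre1 were also the highest of the GGOH group, at 613 CPM against 296 and 360 CPM for Csf1r and 161 CPM against 95.2 and 121 CPM for Adgre1. The part of that shift in these values was not tested.

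Against control, the GGOH libraries had 15 of the 38 genes lower and 3 higher, 18 in all, where 52.4% of all genes were called. That is 39.5% lower, against 26.0% of all genes tested, and 7.89% higher, against 26.3%. In 19 of the 38 the libraries did not overlap, against 58.3% of all genes. Only Vars lay at least 2-fold lower (1 gene, against 4.62% of all genes), and 0 lay at least 2-fold higher (against 16.9%). The 3 higher genes were Slc3a2, Shmt1 and Wars. The Shmt1 call (log2 0.60) was lost without control replicate 1 or 2, pamidronate replicate 1 or 3 or GGOH replicate 1 or 2 (log2 0.39 to 0.63), and the Wars call (log2 0.27) without control replicate 1 (log2 0.21) or GGOH replicate 2 (log2 0.25), so 1 higher call was left without GGOH replicate 2. Shmt1 was also lost with the replicate block (adjusted p = 0.0624) and in the 2-group fit (adjusted p = 0.0534), and Wars with no filter (adjusted p = 0.0747). Of the genes with both a pamidronate fall and a GGOH rise, 8 were still called below control, namely Vars, Iars, Aldh18a1, Phgdh, Psat1, Shmt2, Slc1a4 and Slc38a1. Among these, the Shmt2 call (log2 -0.94) was lost without control replicate 2 or 3 or GGOH replicate 2 (log2 -0.95, -0.82 and -0.87), that of Slc1a4 (log2 -0.51) without control replicate 1 or 2 or GGOH replicate 1 or 2 (log2 -0.49, -0.48, -0.41 and -0.39), and that of Psat1 (log2 -0.39) without GGOH replicate 2 (log2 -0.34). With upper-quartile factors the calls of Iars (log2 -0.11, adjusted p = 0.302), Phgdh (log2 -0.37, adjusted p = 0.0596), Psat1 (log2 -0.19), Slc1a4 (log2 -0.31) and Slc38a1 (log2 -0.20, adjusted p = 0.0862) were lost. Shmt2 was lost with no filter (adjusted p = 0.0849) and in the 2-group fit (adjusted p = 0.0633). With the stricter filter Iars (adjusted p = 0.0719), Psat1 (adjusted p = 0.0543) and Slc1a4 (adjusted p = 0.0929) were lost, and in the 2-group fit Iars (adjusted p = 0.0509) and Slc1a4 (adjusted p = 0.0576). Among the genes below control without a GGOH rise, Gars, Mars and Tars were lost with upper-quartile factors (log2 -0.07, -0.23 and -0.11), and Gars also with the stricter filter (log2 -0.16), in the 2-group fit (log2 -0.24) and without GGOH replicate 1 or 2 (log2 -0.22 and -0.27). The 8 genes with both a pamidronate fall and a GGOH rise that were not called below control were Dars, Asns, Pycr1, Psph, Mthfd2, Mthfd1l, Slc7a5 and Slc38a2, and a missed threshold does not show that these equalled control. Slc7a5 in particular read -0.40 ± 0.17 (adjusted p = 0.0758), and -0.63 without GGOH replicate 3 (adjusted p = 0.000741). It also passed with no filter (log2 -0.43), DESeq2 (log2 -0.42, adjusted p = 0.0327), limma-voom (adjusted p = 0.0444), the replicate block (adjusted p = 0.00509) and without control replicate 1 (log2 -0.51). Mthfd1l passed as lower with RLE factors (log2 -0.27) and without control replicate 1 (log2 -0.31) or GGOH replicate 3 (log2 -0.36). Mthfd2 did so without GGOH replicate 3 (log2 -0.27). Slc38a2 passed as higher with upper-quartile factors (log2 0.41), the stricter filter (log2 0.33) and without control replicate 3 (log2 0.32). Of the lower calls 6 passed under all 17 refits described in the closing section (Vars, Aldh18a1, Hars, Qars, Mthfd1 and Slc1a5). This comparison depended on the scaling. The share of higher calls among all called genes was 50.3%, and 69.2% with upper-quartile factors, which moved the median of all genes from 0.02 to 0.23 and under which 7 of the 38 genes were higher and 7 lower.

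Regulators and markers of the amino acid stress response formed a list of 22 genes, of which 21 were tested. With pamidronate 10 of them rose (47.6%, against 36.2% of all genes) and 4 fell (19%, against 32.9%), and Atf4 itself rose. Atf4 mRNA was at 162, 155 and 138 CPM in control, 734, 787 and 903 CPM in pamidronate and 394, 335 and 260 CPM in GGOH libraries. The groups stood apart with GGOH in the middle. Atf4 rose 5.32-fold (log2 2.41 ± 0.14, adjusted p = 7.7e-09) and fell by 1.29 ± 0.14 with GGOH (adjusted p = 5e-06). Ddit3, which encodes the stress factor CHOP, was at 23.9, 17.9 and 13.1 CPM in control, 125, 131 and 142 CPM in pamidronate and 70.7, 72.0 and 51.5 CPM in GGOH libraries. It followed the same order and rose 7.24-fold (log2 2.86 ± 0.20, adjusted p = 7.63e-07). Eif2ak4, the GCN2 gene, was at 57.1, 51.4 and 50.4 CPM in control, 89.5, 96.4 and 101 CPM in pamidronate and 62.2, 59.7 and 59.9 CPM in GGOH libraries. The pamidronate libraries stood highest, and Eif2ak4 rose by 0.86 ± 0.08 (adjusted p = 5.11e-07) and fell by 0.66 ± 0.08 (adjusted p = 1.97e-05). Ppp1r15a, a phosphatase subunit that reverses eIF2α phosphorylation, rose by 2.39 and fell by 1.00 with GGOH. RNA levels carry no measure of ATF4 protein or of eIF2α phosphorylation.

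**Figure D4:**
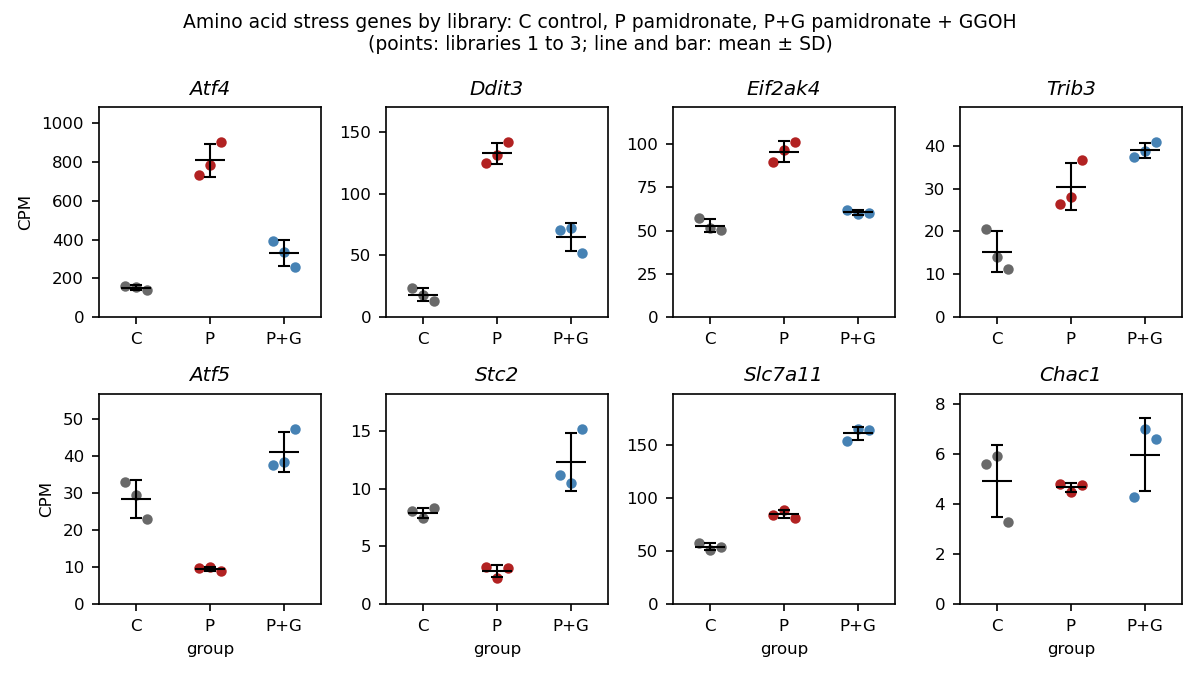
CPM (y axis, from 0) of 8 amino acid stress genes in each library of the control (C), pamidronate (P) and pamidronate + GGOH (P+G) groups, with the mean and SD over 3 libraries. Atf4, Ddit3 and Eif2ak4 are highest in P, Atf5 and Stc2 are lowest in P, and Trib3 and Slc7a11 are highest in P+G.

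Other genes on the list went in several directions. Atf5, a related transcription factor, fell by 1.58 with pamidronate and rose by 2.11 with GGOH, from 28.5 CPM in control to 9.55 and then 41.1 CPM on average. Stc2, for the secreted protein stanniocalcin 2, fell by 1.46 and rose by 2.10. Eif2ak2, the gene of the eIF2α kinase PKR, fell by 0.98 and rose by 1.13. Trib3, a pseudokinase, was at 20.6, 14 and 11.2 CPM in control, 26.5, 28.0 and 36.7 CPM in pamidronate and 37.3, 38.6 and 40.8 CPM in GGOH libraries. It rose by 0.99 ± 0.19 with pamidronate (adjusted p = 0.000644), and the GGOH difference of 0.36 did not pass (adjusted p = 0.131). Chac1, which degrades glutathione, did not pass in any of the 3 comparisons at 3.27 to 7.02 CPM. Slc7a11, the cystine carrier xCT that pairs with the Slc3a2 product, was at 57.7, 51.2 and 53.7 CPM in control, 83.8, 88.8 and 81.5 CPM in pamidronate and 154, 165 and 164 CPM in GGOH libraries. Like Slc3a2 it stood lowest in control and highest with GGOH, rising by 0.65 ± 0.08 (adjusted p = 5.91e-06) and again by 0.92 ± 0.08 (adjusted p = 8.48e-07).

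Of 20 genes for mitochondrial tRNA charging, 3 rose (15%) and 8 fell (40.0%) with pamidronate, beside 36.2% and 32.9% of all genes, with a median log2 fold change of -0.27. Among those that fell were Iars2 (log2 -0.94) and Gatb (log2 -0.92), for the mitochondrial isoleucyl enzyme and a subunit of the glutaminyl-tRNA amidotransferase, and both rose with GGOH (0.68 and 0.58). Qrsl1, Sars2 and Tars2 rose by 0.79, 0.58 and 0.23. Qrsl1 and Gatb encode subunits of the same amidotransferase, and they moved in opposite directions with pamidronate. Of the 3 scaffold proteins of the multi-synthetase complex, Aimp1 rose by 0.27, Aimp2 fell by 0.77 and Eef1e1 did not pass (log2 -0.03). Among 5 elongation factor genes, which bring charged tRNA to the ribosome and move it on, Eef1d, Eef1g and Eef2 fell by 0.66, 0.38 and 0.38 (60.0%, against 32.9% of all genes), and none rose.

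A list of 21 further amino acid transporters had 13 tested, with 4 higher and 4 lower (30.8% each), near the 36.2% and 32.9% of all genes. Slc7a7 and Slc7a8, light chains that pair with the Slc3a2 product, fell by 2.36 and 1.97 and rose by 1.81 and 1.50 with GGOH, and the taurine carrier Slc6a6 fell by 1.11 with a GGOH difference of 0.03 that did not pass. Slc43a3, Slc38a7 and Slc7a11 rose by 1.45, 1.11 and 0.65. Among light chains that pair with the Slc3a2 product, Slc7a5, Slc7a7 and Slc7a8 fell, Slc7a11 rose and Slc7a6 (48.8 CPM in control and 53.5 CPM in pamidronate libraries) did not pass. Of 19 other folate and glycine enzymes, 5 rose (26.3%) and 8 fell (42.1%), beside 36.2% and 32.9% of all genes. Gcsh of the glycine cleavage system, Mthfd2l and the folate hydrolase Ggh fell by 1.40, 1.37 and 1.21, while Amt of the same cleavage system, the methionine synthase reductase Mtrr and the polyglutamate synthase Fpgs rose by 1.49, 1.08 and 0.76.

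Among other enzymes of amino acid metabolism 22 of 23 were tested, with 5 higher (22.7%, against 36.2% of all genes) and 12 lower (54.5%, against 32.9%). Glul, the glutamine synthetase, was at 71.0, 87.7 and 88.3 CPM in control, 18.7, 15.4 and 13.4 CPM in pamidronate and 27.2, 29.4 and 39.8 CPM in GGOH libraries. The groups did not overlap, and Glul fell by 2.37 ± 0.16 (adjusted p = 5.66e-08) and rose by 1.02 ± 0.16 (adjusted p = 0.000197). The asparaginase Asrgl1 and the branched-chain transaminase Bcat2 fell by 2.14 and 1.95. Both arginases rose, Arg1 by 2.69 from 1.18 ± 0.42 CPM and Arg2 by 1.67. The serine dehydratase gene Sds was called higher on few reads, with 8 counts over the control and 24 over the pamidronate libraries, at 0.305, 0.253 and 0.927 CPM in the latter, so its fold is not given. Of the genes that report amino acid levels to the kinase complex mTORC1, 15 of 17 were tested, with 4 higher (26.7%) and 7 lower (46.7%), beside 36.2% and 32.9% of all genes. The Rag GTPase genes went in different directions, with Rragd and Rraga rising by 3.29 and 1.75 and Rragb falling by 1.47. Rragd was low in control, at 0.350, 0.280 and 0.741 CPM, so its fold change is imprecise (SE 0.34). Castor1, an arginine sensor, rose by 0.45, and Nprl3 and Lamtor2, of the GATOR1 and Ragulator complexes, fell by 1.49 and 1.22.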

How the data were processed

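RNA-seq of 9 libraries of RAW 264.7 cells was used, in 3 groups of 3 taken from the treatment labels. Per the submitters' processing notes, reads were trimmed with Trimmomatic 0.36 with GRCm38 as genome build and DESeq among the tools. Which aligner and counter were used and whether strand was kept is not given in the sources used here. Per the labels' protocols, libraries were made with an Illumina total RNA kit that depletes ribosomal RNA, and the labels give 1 batch. A percentage in the names of the GGOH libraries has no explanation in the labels.

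The deposited table holds raw counts per gene. The authors' deposited TPM values equal counts over exon length, rescaled to the same total in each library, to within 5e-05. They served only to compare levels between genes. Genes were kept with edgeR's filterByExpr, scaled with TMM factors and fitted in 1 model of 3 group means over all 9 libraries, with 6 residual degrees of freedom (edgeR 4.0.16, robust quasi-likelihood F test, R 4.3.3). Benjamini-Hochberg adjustment ran over 15963 genes, and a gene was called at an adjusted p under 0.05 with no minimum fold. CPM values are on TMM-scaled library sizes, and the SE was taken as the size of the log2 change divided by the root of the F statistic. Values named for each library follow a rule: in each role group, up to 3 largest called changes in each direction in the first or second comparison, plus Asns. From each further list, up to 3 called genes in each direction were named, plus Atf4, Ddit3, Trib3, Chac1, Eif2ak4 and Slc7a11. Values of Wars, Csf1r, Adgre1, Eef1e1, Slc7a6 and the genes that overlap a member were added after they were seen. The genes, lists and tests were chosen with earlier results of these data known. The fit was tested on simulated data in which few genes differed, so that test does not bear on the scaling used here. It recovered only part of the smaller changes. The 17 refits used upper-quartile or RLE factors, a minimum count of 50 or none in the filter, DESeq2 1.42.0, limma-voom (limma 3.58.1), a replicate block, only the 2 groups compared, and leaving out each library. An adjusted p under 0.01 and a 2-fold minimum were tried as other thresholds. Promoter windows came from RefSeq. A gene and a promoter stretch that these rules would name are not reported here.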

Additional observations from a re-analysis of the deposited data

How the results depend on the processing

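No value changed sign past the threshold under any alternative run. In pamidronate against control, 5 of the 7 higher and 21 of the 25 lower calls passed in all 17 refits, as did 14 of 17 and 3 of 4 in GGOH against pamidronate, and 1 of 3 and 6 of 15 in GGOH against control. Leaving out 1 library gave 5 to 7 higher and 24 to 28 lower genes with pamidronate, 14 to 19 and 3 to 5 for GGOH against pamidronate, and 1 to 4 and 11 to 21 for GGOH against control, where GGOH replicate 2 left 1 higher and 11 lower and GGOH replicate 3 left 21 lower. A 2-fold minimum left 1 higher and 6 lower, 4 and 0, and 0 and 1 genes in the same order. For GGOH against control, upper-quartile factors gave 7 higher and 7 lower, the stricter filter 6 higher, and an adjusted p under 0.01 gave 1 higher and 9 lower. The cause was not tested, apart from the lower threshold counts, which follow from the threshold. Correlations of same-numbered libraries between groups ran from -0.22 to 0.20, and those of differently numbered libraries from -0.22 to 0.18. Such values from 3 libraries a group cannot show whether replicate numbers pair the libraries. With the replicate block 6 genes were higher and 25 lower, 17 and 4, and 2 and 16. For single genes, 30 values lost their call and 17 gained one across the 17 refits of pamidronate against control, 7 and 17 for GGOH against pamidronate, and 38 and 27 for GGOH against control, and the report gives the main ones. With 3 libraries a group, a missed call does not show that 2 groups were equal.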
